A study of Mus musculus with 35 samples.

Results

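Transcripts of 9 epidermal keratins were followed through sorted keratinocytes of mouse skin and oral epithelium. The genes were Krt5, Krt14 and Krt15, which mark the basal layer, and Krt1, Krt10, Krt2, Krt77, Krt78 and Krt80, which belong to the suprabasal layers. Each was taken as the row that bears its symbol, and all 9 were listed in every table, among 53715 genes in the back skin tables and 49585 in the tables of tail, palate and tongue.

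All 35 libraries came from 2-month-old C57BL/6J mice with the transgenes K5-tTA and pTRE H2B-GFP. In such mice the keratin 5 promoter drives a transactivator that doxycycline switches off, so histone-bound GFP is diluted with each division, and Krt5, one of the genes described here, shares its promoter with the label. Doxycycline was given for 2 weeks in skin experiments and for 10 days in oral ones. Cells that kept the label (LRC, slow-cycling) and cells that lost it (nLRC, fast-cycling) were sorted separately. In back skin the groups were the hair follicle bulge, basal layer LRC and nLRC, spinous layer LRC and nLRC, and the granular layer, with 3 libraries each. Tail gave bulge, basal LRC and basal nLRC with 3 libraries each, and tongue and palate gave basal LRC and nLRC with 2 libraries each. No label ties a library to an animal, and the p-values therefore rest on the variation among these libraries, which may be technical.

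Keratins form the intermediate filaments of epithelial cells as obligate pairs of a type I and a type II chain. Basal keratinocytes build theirs from keratin 14 or 15 with keratin 5, and cells that leave the basement membrane switch to keratin 10 with keratin 1. Filaments are anchored at desmosomes between cells and at hemidesmosomes, through integrin alpha 6 beta 4, on the basement membrane. On mm10 the type I genes Krt10, Krt15 and Krt14 lie on chromosome 11, and the 6 type II genes lie on chromosome 15 in the order Krt80, Krt5, Krt2, Krt1, Krt77, Krt78, with all 9 on the minus strand. Krt2 (101810689 to 101818169), Krt1 (101845426 to 101850794) and Krt77 (101858731 to 101869705) follow each other among these 9 genes.

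The promoters of 4 of these genes are shown because their transcripts carry the contrasts described below. Krt5 is the basal type II chain and Krt10 the suprabasal type I chain, while Krt77 and Krt2 lie close together on chromosome 15 and their levels in back and tail ran in opposite directions. Sequences are from RefSeq on GRCm38.p6 (mm10), minus strand, from 250 bases before to 50 bases after the start site, at chr15:101712856-101713155 for Krt5, chr11:99389315-99389614 for Krt10, chr15:101869656-101869955 for Krt77 and chr15:101818120-101818419 for Krt2. Capitals mark 3 motifs that were searched on both strands. The first motif is the TATA box core TATAAA. A further motif reads TATATA and may overlap the first. The last motif is GATAAA.
Krt5: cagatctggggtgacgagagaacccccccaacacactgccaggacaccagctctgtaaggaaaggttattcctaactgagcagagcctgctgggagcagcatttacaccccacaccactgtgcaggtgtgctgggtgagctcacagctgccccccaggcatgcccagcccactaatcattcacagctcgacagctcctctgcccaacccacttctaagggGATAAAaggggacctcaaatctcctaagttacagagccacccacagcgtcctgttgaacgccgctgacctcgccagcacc
Krt10: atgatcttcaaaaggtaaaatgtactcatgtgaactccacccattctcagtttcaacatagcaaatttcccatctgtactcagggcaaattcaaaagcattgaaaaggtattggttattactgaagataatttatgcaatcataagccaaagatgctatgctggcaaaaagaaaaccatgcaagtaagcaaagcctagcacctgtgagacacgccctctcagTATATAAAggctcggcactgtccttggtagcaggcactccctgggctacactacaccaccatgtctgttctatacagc
Krt77: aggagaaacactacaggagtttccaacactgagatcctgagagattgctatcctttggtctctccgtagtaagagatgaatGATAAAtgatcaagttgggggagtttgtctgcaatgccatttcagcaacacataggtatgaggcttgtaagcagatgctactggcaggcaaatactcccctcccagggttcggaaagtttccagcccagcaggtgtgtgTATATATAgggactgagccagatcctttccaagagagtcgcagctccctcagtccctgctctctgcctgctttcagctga
Krt2: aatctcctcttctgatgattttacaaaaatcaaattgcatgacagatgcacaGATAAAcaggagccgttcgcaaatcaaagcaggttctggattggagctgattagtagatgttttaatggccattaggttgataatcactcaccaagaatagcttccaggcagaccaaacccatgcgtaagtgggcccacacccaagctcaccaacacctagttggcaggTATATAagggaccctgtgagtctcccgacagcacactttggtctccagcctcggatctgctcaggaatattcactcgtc
Of the 9 genes 6 had an entry in that table. The start site of the Krt14 entry lay 1518 bases from the annotated gene start, so its window was not used. Krt15, Krt1 and Krt80 are named only. All 5 usable promoters, that of Krt78 included, held at least 1 of these motifs on the gene's strand with its first base between -40 and -20 from the start site. Krt5 and Krt78 had GATAAA with its first base at -30. Krt10 had TATATA starting at -28, which ran into a TATAAA starting at -26. Krt77 had TATATA at both -30 and -28, and Krt2 had it at -29. The motifs were chosen after these sequences had been read. Among all 32851 promoters of that length, 3.28% held 1 of the 3 motifs in that window and strand, and 24.5% held 1 anywhere on either strand.

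Depth was 9785944 to 20560481 gene reads in back skin libraries and 8421582 to 15641556 in the others. The 9 keratins took 1.33% to 3.85% of the reads in back skin and 0.759% to 2.72% elsewhere. Marker genes matched the sorted labels for the bulge, where Cd34, a bulge stem cell marker, reached 71.4 to 693 TPM (a level scaled for gene length and library size) in back and 48.6 to 72.7 TPM in tail, against at most 0.81 TPM in every other group. Back bulge library 2, tail bulge library 3 and palate nLRC library 2 stood apart, with scaling factors of 0.50, 0.779 and 0.666, against 0.867 or more in the other libraries of the back, tail and oral fits, and results without them are given where they differ. The 2 sets of tables differ in gene annotation, so levels were tested within a set, and back and tail were joined only to compare the LRC to nLRC difference of each. Krt80 reads and TPM implied a median gene length of 7642 bases in back skin and 2455 bases in the other set, so Krt80 levels are not set across the 2 sets. No single length held in the other set. There, Krt80 TPM times the annotated exon length accounted for 206% to 335% of its reads by library, against 80.7% to 87.7% in back skin.

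The granular layer and the basal layer of back skin differed in all 9 keratins. The 3 basal keratins fell and the 6 suprabasal keratins rose in the granular layer. Of 16574 genes tested, 20% passed in this comparison (11.2% higher and 8.85% lower), at an adjusted p of 0.05 in edgeR's quasi-likelihood test with Benjamini-Hochberg adjustment over all genes. The median log2 fold change was -2.49 for the 3 basal keratins and 2.74 for the 6 suprabasal ones, beside -0.0083 for all genes. In these bulk libraries fewer cells with a transcript and less transcript per cell cannot be told apart.

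Krt5, the basal type II chain, had 3195, 3417 and 5357 TPM in the granular layer, against a lowest of 33571, a median of 39750 and a highest of 43028 TPM in the 6 basal libraries. The groups were far apart, and the log2 fold change was -3.27 (SE 0.40, adjusted p = 1.76e-05, edgeR). Krt14, the type I partner of Krt5, was at 4150, 5348 and 4528 TPM in the granular layer and at 16298 to 37920 TPM (median 25689) in the basal libraries, a log2 fold change of -2.49 (SE 0.31, adjusted p = 2.20e-05). Krt15, a basal type I chain that is enriched in the hair follicle bulge, fell least of the 3 (log2 fold change -1.89, SE 0.49, adjusted p = 0.0103), and its adjusted p was 0.0648 without granular library 1 and 0.0642 without granular library 2.

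Krt1 and Krt10, the main suprabasal pair, rose together. Krt10 had 24672, 21047 and 18921 TPM in the granular layer, against 3285 to 5588 TPM (median 4024) in the basal libraries, and the log2 fold change was 2.35 (SE 0.45, adjusted p = 0.00117). Krt1 rose by 2.65 on the log2 scale (SE 0.48, adjusted p = 0.000705), with 5150 to 8203 TPM in the granular layer and 669 to 1205 TPM in the basal layer. Krt77, a type II keratin of suprabasal epidermis that is also found in sweat ducts, had the highest level of the 6 type II keratins described here in the granular layer, at 18800, 17800 and 15792 TPM, against 1750 to 3069 TPM (median 2413) in the basal layer (log2 fold change 2.82, SE 0.38, adjusted p = 4.23e-05).

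Krt78 had the largest change of the 9 at a low level. It stood at 136, 143 and 149 TPM in the granular layer and at 4.32 to 6.18 TPM (median 5.40) in the basal layer (log2 fold change 4.75, SE 0.54, adjusted p = 9.40e-06). Krt80, a type II keratin of differentiated epithelia, had 727, 845 and 774 TPM in the granular layer, against 193 to 362 TPM in the basal layer, and rose by 1.48 on the log2 scale (SE 0.25, adjusted p = 0.000430). By limma on log2(TPM + 1) Krt80 did not pass (adjusted p = 0.0648). Krt2, which in mouse marks the upper suprabasal layers of tail, ear and sole skin, was scarce throughout back skin. Its granular value rested on 1 library, at 65.0 TPM in granular library 1 but 8.79 and 3.33 TPM in libraries 2 and 3, and without library 1 its adjusted p was 0.272. Against basal nLRC alone it was 0.0638.

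**Figure D1:**
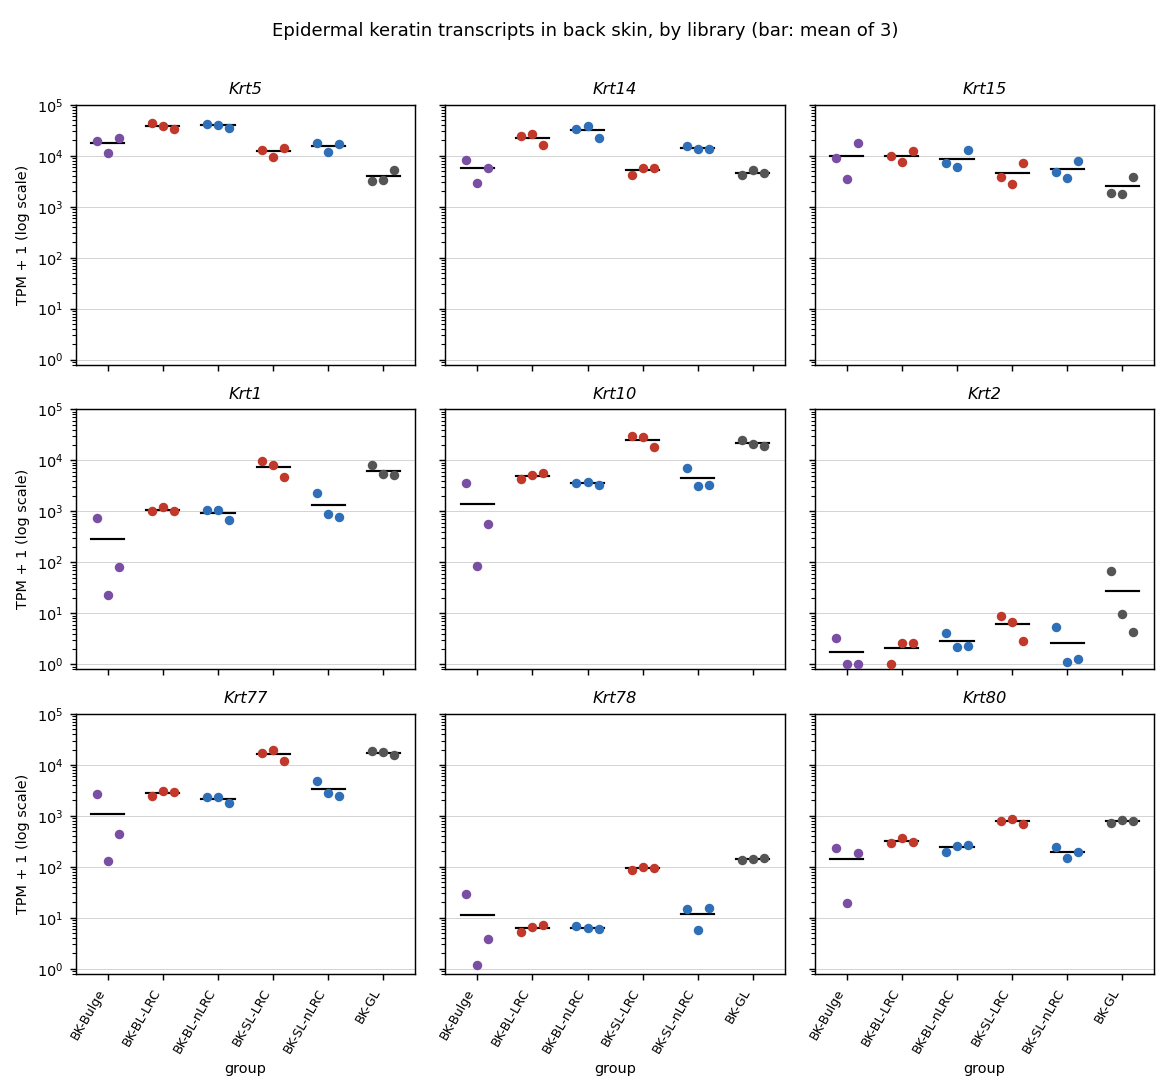
TPM + 1 on a log axis for each of the 9 keratins in the 6 back skin groups. Points are libraries and bars are means of 3. Krt5 and Krt14 are high in the basal groups, while Krt1, Krt10, Krt77, Krt78 and Krt80 sit high in the spinous LRC and granular groups (Krt10 at 18012 to 29333 TPM) and low in the spinous nLRC group (3142 to 7018 TPM).

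Other genes of the keratin system moved with the keratins between the granular and basal layers. Of 14 genes of basal layer adhesion 11 fell and 1 rose (median log2 fold change -2.14), among them Itga3 (-3.90, SE 0.33), an integrin of the basement membrane, and Itgb4 (-2.56, SE 0.23), the hemidesmosomal partner of keratin 5 and 14 filaments. Of 13 desmosomal genes that anchor keratins 9 rose and 2 fell. Dsc1, the desmocollin of the upper layers, rose by 4.45 (SE 0.38), and Dsg2 had -2.69 (SE 0.25). Of 13 genes of spinous differentiation 11 rose and 1 fell, and of 24 tested genes of the granular and cornified layers 17 rose and 0 fell (median 3.52), with Sbsn at 3.59 (SE 0.20) and Ivl, a precursor of the cornified envelope, at 4.27 (SE 0.39). Upper follicle markers rose with them, 6 of 6, with a summed level of 13142 to 20515 TPM in the granular layer and 421 to 894 TPM in the basal layer, and 8 of 12 sebocyte markers rose. Immune markers rose in 5 of 7 cases, with summed levels of 135 to 560 TPM in the granular layer and 24.5 to 144.5 TPM in the basal layer. Bulge markers rose in 4 of 9 cases and fell in 1, and mitosis genes fell in 8 of 12. Their part in the keratin differences was not tested.

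Slow-cycling cells of the spinous layer differed from basal LRC in most of these keratins, with the signs seen in the granular layer. Against basal LRC, 7 of the 9 keratins passed the test in spinous LRC, 5 higher and 2 lower, where 6.05% of 16574 genes passed (3.2% higher and 2.85% lower). Krt10 stood at 29333, 29064 and 18012 TPM in spinous LRC and at 4214, 5148 and 5588 TPM in basal LRC (log2 fold change 2.27, SE 0.57, adjusted p = 0.0233). Krt77 stood at 17240, 19551 and 12037 TPM in spinous LRC and at 2482, 3069 and 2920 TPM in basal LRC (2.46, SE 0.48, adjusted p = 0.00489). In both genes the lowest spinous value was several times the highest basal one. Krt78 rose by 4.08 (SE 0.70), Krt1 by 2.73 (SE 0.61) and Krt80 by 1.25 (SE 0.31). The log2 fold change was -2.13 for Krt14 (SE 0.33, adjusted p = 0.00123) and -1.68 for Krt5 (SE 0.40, adjusted p = 0.0170). Krt15 was at 3855, 2777 and 7139 TPM in spinous LRC and at 9676, 7566 and 12175 TPM in basal LRC, with an adjusted p of 0.268, and passed when the replicate number was a block (-1.21, SE 0.25, adjusted p = 0.00723). Krt2 did not pass, with 115 reads in all in spinous LRC and 30 in basal LRC.

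The count of 7 was 5 without basal LRC library 3, 4 without basal LRC library 1 and 3 without basal LRC library 2, spinous LRC library 1 or spinous LRC library 2, and Krt5, Krt1, Krt10 and Krt80 were the genes that missed the threshold, with adjusted p-values of 0.0520 to 0.136 there. The 7 fold changes kept their direction, and by edgeR Krt14, Krt77 and Krt78 passed with any single library left out. By limma on log2(TPM + 1) 3 passed, and Krt1, Krt10, Krt77 and Krt80 did not, with adjusted p-values of 0.0800, 0.161, 0.0516 and 0.401.

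In fast-cycling cells of the spinous layer no keratin passed. Against basal nLRC, 0 of the 9 keratins passed edgeR's test in spinous nLRC, where 4.17% of all genes did (2.75% higher and 1.42% lower), and for 2 keratins the unadjusted p was below 0.05, as it was for 15.2% of all genes. Krt10 was at 7018, 3142 and 3250 TPM in spinous nLRC and at 3535, 3833 and 3285 TPM in basal nLRC, so the groups overlapped. Krt1 overlapped as well, at 2325, 884 and 773 TPM in spinous nLRC and 1070, 1070 and 669 TPM in basal nLRC. Krt77 did not overlap, at 4855, 2823 and 2492 TPM in spinous nLRC and 2331, 2344 and 1750 TPM in basal nLRC. It was higher but did not pass (log2 fold change 0.66, adjusted p = 0.588, edgeR). The share of all genes without overlap was not counted. Krt5 had 17606, 11836 and 17090 TPM in spinous nLRC, against 42669, 40866 and 34663 TPM in basal nLRC, and Krt14 had 15296, 13416 and 13724 TPM, against 34144, 37920 and 22711 TPM. Both basal keratins were lower without overlap, with adjusted p-values of 0.0769 for Krt5 and 0.0638 for Krt14 and, with the replicate number as a block, 0.0444 and 0.0231. Krt14 and Krt5 also passed without back bulge library 1 or 2, and Krt14 alone without back bulge library 3. Genes of spinous differentiation summed to 2033 to 3236 TPM in spinous nLRC and to 2078 to 2619 TPM in basal nLRC, which overlapped. Their sum was 6932 to 9454 TPM in spinous LRC. Among them Krtdap (550 to 969 against 397 to 486 TPM) and Sbsn (127 to 157 against 51.5 to 72.5 TPM) were higher in spinous than in basal nLRC. Spinous nLRC libraries carried sebocyte markers at a summed 4107 to 9025 TPM, against 528 to 975 TPM in basal nLRC, with 11 of 12 higher by the test. Upper follicle markers were higher in 5 of 6 cases, and 0 of 12 mitosis genes passed. Their part in the keratin values was not tested.

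Between the granular layer and spinous LRC, 0 of the 9 keratins passed edgeR's test, against 0.977% of all genes (0.796% higher and 0.181% lower), and for 1 keratin the unadjusted p was below 0.05, as it was for 9.44% of all genes. That gene, Krt5, was at 3195, 3417 and 5357 TPM in the granular layer and at 12812, 9319 and 14384 TPM in spinous LRC, with an adjusted p of 0.0849 and, with the replicate number as a block, of 0.0445. Krt5 also passed without back bulge library 1 or 2. Krt1, Krt10, Krt77 and Krt80 overlapped between these 2 groups, while Krt78 did not, at 136 to 149 TPM in the granular layer and 84.8 to 97.1 TPM in spinous LRC (log2 fold change 0.70, SE 0.61, adjusted p = 0.912). Against spinous nLRC the granular layer differed in 7 of 9 keratins, 5 higher and 2 lower, where 14.2% of genes passed (6.67% higher and 7.51% lower). Krt78 rose by 3.70 (SE 0.68), Krt77 by 2.33 (SE 0.47) and Krt80 by 1.97 (SE 0.31), while Krt5 had a log2 fold change of -2.03 (SE 0.40) and Krt14 one of -1.67 (SE 0.32). Krt1 rose by 2.24 (SE 0.60, adjusted p = 0.0189) and Krt10 by 2.25 (SE 0.57, adjusted p = 0.0131). Without spinous nLRC library 2 their adjusted p-values were 0.103 and 0.0803, without library 3 they were 0.0897 and 0.0641, and Krt1 had 0.0701 without granular library 1. By limma on log2(TPM + 1) they were 0.0734 for Krt1 and 0.0782 for Krt10. Krt15 was not called (adjusted p = 0.128) but passed with the replicate block (adjusted p = 0.00341), and Krt2 did likewise (adjusted p = 0.0526 and, with the block, 0.0220). Sebocyte markers fell in 11 of 12 cases (median -2.91), with summed levels of 1086 to 1570 TPM in the granular layer and 4107 to 9025 TPM in spinous nLRC, and mitosis genes fell in 10 of 12. The part of either in this keratin difference was not tested.

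The share of the 9 keratins' TPM that came from the 6 suprabasal genes sums these patterns per library. It was 74.8%, 81.1% and 85.1% from lowest to highest in the granular layer, 56.6%, 73.3% and 76.5% in spinous LRC and 14.8%, 19.5% and 27.7% in spinous nLRC. Basal LRC had 9.43%, 11.8% and 13.7%, and basal nLRC had 7.83%, 7.85% and 8.15%. Thus spinous nLRC libraries lay above both basal groups and far below spinous LRC in this share. The summed TPM of the 6 suprabasal genes overlapped, at 6727 to 14460 in spinous nLRC, 5975 to 7513 in basal nLRC and 8009 to 9816 in basal LRC. That of the 3 basal genes did not, at 28860 to 38870 in spinous nLRC, 70150 to 84690 in basal nLRC and 62040 to 76950 in basal LRC.

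**Figure D2:**
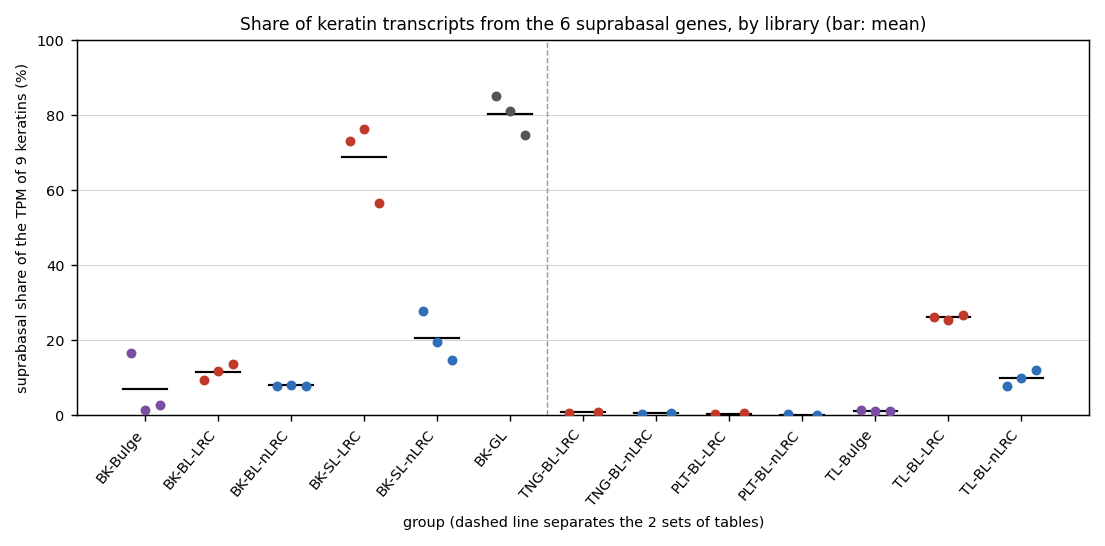
Percent of the summed TPM of the 9 keratins that came from Krt1, Krt10, Krt2, Krt77, Krt78 and Krt80, for each library of the 13 groups. Bars are means. Spinous LRC and granular libraries lie above 56%, spinous nLRC libraries at 14.8% to 27.7%, all within the back skin tables. In the other tables, right of the dashed line, tail basal LRC lies at 25.4% to 26.7% and tongue and palate libraries below 1%. The share holds Krt1 and Krt80, whose implied lengths differ between the tables, so heights compare only on 1 side of the line.

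Slow- and fast-cycling spinous cells of back skin differed in 6 of the 9 keratins, 5 higher and 1 lower in LRC, where 15.5% of genes passed (6.88% higher and 8.63% lower). Krt1 was at 9597, 8179 and 4656 TPM in spinous LRC and at 2325, 884 and 773 TPM in spinous nLRC (log2 fold change 2.39, SE 0.60, adjusted p = 0.0127). Krt10 rose by 2.39 (SE 0.57, adjusted p = 0.00893), Krt77 by 2.15 (SE 0.47) and Krt78 by 2.99 (SE 0.67). Krt80 was at 774, 862 and 684 TPM in spinous LRC and at 245, 149 and 197 TPM in spinous nLRC, a rise of 1.90 (SE 0.31, adjusted p = 0.000699). Krt14 was the keratin that fell, at 4127, 5695 and 5702 TPM in spinous LRC and 15296, 13416 and 13724 TPM in spinous nLRC (-1.60, SE 0.32, adjusted p = 0.00306). Its partner Krt5 overlapped between the groups (adjusted p = 0.434), and the ratio of Krt14 to Krt5 TPM was 0.322 to 0.611 in spinous LRC and 0.803 to 1.13 in spinous nLRC.

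Of 13 spinous differentiation genes 10 rose in spinous LRC over spinous nLRC (median 1.47), and 6 of 13 desmosomal genes rose and 1 fell, with Dsg1a at 1.86 (SE 0.28). Sebocyte markers fell in 11 of 12 cases (median -5.47), with summed levels of 791 to 876 TPM in spinous LRC and 4107 to 9025 TPM in spinous nLRC. Mitosis genes fell in 9 of 12 cases, and 4 of 6 upper follicle markers fell. Their part in the keratin difference was not tested. Without spinous nLRC library 2 the adjusted p-values were 0.0811 for Krt1 and 0.0620 for Krt10, and Krt1 had 0.0673 without spinous nLRC library 3 and 0.0507 without spinous LRC library 1. By limma on log2(TPM + 1) they were 0.0510 for Krt1 and 0.0550 for Krt10.

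Between slow- and fast-cycling cells of the back skin basal layer no keratin passed the test. By edgeR 0 passed, where 0.235% of genes did (0.0121% higher and 0.223% lower). No keratin had an unadjusted p below 0.05 (0 of 9, against 4.84% of all genes), and DESeq2 called 0 of the 7 to which it gave an adjusted p. Krt5 had 43028, 38633 and 33571 TPM in basal LRC and 42669, 40866 and 34663 TPM in basal nLRC. Krt14 had 24251, 27127 and 16298 TPM in basal LRC and 34144, 37920 and 22711 TPM in basal nLRC, and though the groups overlapped, the LRC library was lower than the nLRC library of its number in 3 of 3 pairs, at 0.710, 0.715 and 0.718 of it. Its log2 fold change was -0.58 (SE 0.32, adjusted p = 1). Krt10, Krt77 and Krt80 were higher in LRC in 3 of 3 pairs without overlap of the groups, with log2 fold changes of 0.43, 0.34 and 0.32 (SE 0.54, 0.45 and 0.30), none past the test. The share of all genes that separate in this way was not counted, so these gaps have no background beside them. The test of the difference between the LRC effects of the spinous and basal layers passed for 0 of 9 keratins, where 0.392% of genes passed (0.103% higher and 0.29% lower), although the unadjusted p of 6 keratins was below 0.05, as it was for 12.3% of all genes. Krt80 came nearest, at 1.59 (SE 0.43, adjusted p = 0.116). This test called 4 keratins without back bulge library 1 and 2 without back bulge library 2. Its count over all genes ran from 10 to 866 with each library left out.

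The back skin bulge had less Krt14 than the basal layer and a broad range in the other keratins. Of the 9 keratins 5 fell and 0 rose, where 26.3% of genes passed (15.7% higher and 10.6% lower). Krt14 was at 8222, 2964 and 5791 TPM in bulge libraries 1 to 3, against 16298 to 37920 TPM in the 6 basal libraries (log2 fold change -1.79, SE 0.30, adjusted p = 0.000281). Krt15 was at 8916, 3438 and 17807 TPM in the bulge and 5905 to 12775 TPM in the basal libraries, and did not pass (0.41, SE 0.44, adjusted p = 0.524). Relative to its alternative Krt14, Krt15 was more abundant in the bulge than in the basal layer. The ratio of the 2 levels was 1.08 to 3.08 in the bulge and 0.156 to 0.747 in the basal groups. Spinous LRC, at 0.488 to 1.25, overlapped the bulge, while the granular layer (0.332 to 0.848) and spinous nLRC (0.269 to 0.587) lay below it.

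The suprabasal keratins of the bulge depended on the library. Krt1 was at 751, 21.8 and 78.6 TPM and Krt77 at 2668, 127 and 434 TPM in bulge libraries 1 to 3, against basal ranges of 669 to 1205 and 1750 to 3069 TPM. The log2 fold change was -2.08 for Krt1 (SE 0.55, adjusted p = 0.0101), -1.90 for Krt10 (SE 0.52, adjusted p = 0.0115), -1.38 for Krt77 (SE 0.42, adjusted p = 0.0216) and -1.03 for Krt80 (SE 0.27, adjusted p = 0.0107; 0.0534 by limma), while library 1 lay inside the basal range for each of these 4 genes. The count of 5 was 3 without bulge library 3 and 6 without library 1. Without library 2 it stayed at 5, with Krt5 called (-1.11, adjusted p = 0.00739) and Krt77 not (adjusted p = 0.0552), and Krt10 and Krt77 had adjusted p-values of 0.0569 and 0.0928 without library 3. Krt78 changed sign without library 1, to -1.49 (SE 0.45, adjusted p = 0.0195). Bulge libraries also carried markers of other cell types, with summed endothelial markers of 311, 8.63 and 117 TPM and melanocyte markers of 181, 12.9 and 468 TPM in libraries 1 to 3, where the endothelial sum was at most 0.50 TPM in the basal groups. Sebocyte markers summed to 1611, 153 and 714 TPM. Their part in the keratin values was not tested.

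Krt15 had 1 regularity across all 6 back skin groups. The library numbered 3 was highest and the library numbered 2 lowest in 6 of 6 groups, for example 12175 against 9676 and 7566 TPM in basal LRC, and 3840 against 1872 and 1773 TPM in the granular layer. What a replicate number marks is not given in the labels.

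In tail skin slow- and fast-cycling basal cells differed in 5 of the 9 keratins, where 4.6% of 14993 genes passed (3.12% higher and 1.48% lower). Krt80, Krt15 and Krt1 were higher and Krt14 and Krt5 lower in LRC. Krt80 was at 110, 87.5 and 116 TPM in tail LRC and at 12.5, 13.2 and 21.9 TPM in tail nLRC, with a wide gap between the groups. Its log2 fold change was 2.54 (SE 0.16, adjusted p = 5.54e-05), and it passed with any of the 9 tail libraries left out.

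Krt15 was at 2993, 1545 and 2560 TPM in tail LRC and at 432, 316 and 593 TPM in tail nLRC (1.99, SE 0.31, adjusted p = 0.00525). Krt14 was at 7917, 8616 and 8627 TPM in tail LRC and at 15068, 15824 and 15287 TPM in tail nLRC (-1.32, SE 0.25, adjusted p = 0.0142). Krt5 was at 6247, 7490 and 6661 TPM in tail LRC and at 9897, 11505 and 10234 TPM in tail nLRC (-1.08, SE 0.25, adjusted p = 0.0410). The ratio of Krt15 to Krt14 TPM was 0.179 to 0.378 in LRC and 0.0200 to 0.0388 in nLRC. Krt1 was at 2960, 2095 and 2823 TPM in tail LRC and at 743, 588 and 1001 TPM in tail nLRC (1.34, SE 0.30, adjusted p = 0.0343). Its partner Krt10 was at 2548 to 2881 TPM in LRC and 1059 to 1757 TPM in nLRC, without overlap, and did not pass (0.52, SE 0.16, adjusted p = 0.105). By DESeq2 and by limma on log2(TPM + 1) Krt10 did pass. Krt2 overlapped, at 421, 968 and 666 TPM in tail LRC and 281, 877 and 769 TPM in tail nLRC (adjusted p = 0.724). The log2 fold changes of this comparison rest on TMM-scaled read counts and were lower than the printed TPM alone would give. Over the alternatives they ran from -1.47 to -0.877 for Krt14, -1.23 to -0.634 for Krt5 and 0.456 to 0.959 for Krt10.

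Only Krt80 and Krt15 of these 5 kept their calls with each of the 9 libraries left out. The count was 2 without tail LRC library 1 or 3, 3 without tail LRC library 2 or tail nLRC library 1 or 2, and 4 without tail nLRC library 3 or tail bulge library 1. Across those fits the adjusted p was at most 0.159 for Krt5, 0.0712 for Krt14 and 0.114 for Krt1, and no direction changed. Follicle markers moved with the LRC label in tail. Of 10 bulge markers tested 7 rose, with a summed 188 to 349 TPM in tail LRC and 20.9 to 50.5 TPM in tail nLRC, and 5 of 6 upper follicle markers rose, with Lrig1 at 2.96 (SE 0.21). The defining bulge gene Cd34 was at 0.03 to 0.17 TPM in tail LRC. Mitosis genes rose in 3 of 12 cases and fell in 0. Their part in the keratin difference was not tested.

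The LRC effect differed between tail and back skin for Krt80. The log2 fold change of LRC over nLRC was larger in tail by 2.22 (SE 0.30, adjusted p = 0.00121, edgeR on 15560 genes, of which 2.9% passed, 2.33% higher and 0.578% lower), and Krt80 was 1 of 9 keratins to pass. With the replicate number as a block 4 passed, Krt15 (1.80, SE 0.19), Krt1 (1.19, SE 0.22) and Krt80 higher in tail and Krt5 lower (-0.95, SE 0.25). Krt15 had 0.0976 and Krt1 0.0968 as adjusted p without it. The count was 3 without tail LRC library 2 and 2 without tail nLRC library 3. The relation of Krt80 reads to TPM differed between the 2 sets of tables and, in the tail, palate and tongue set, between libraries. Only a factor that is constant within a set cancels in this difference. Whether the way Krt80 reads were counted changed its value was not tested.

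**Figure D3:**
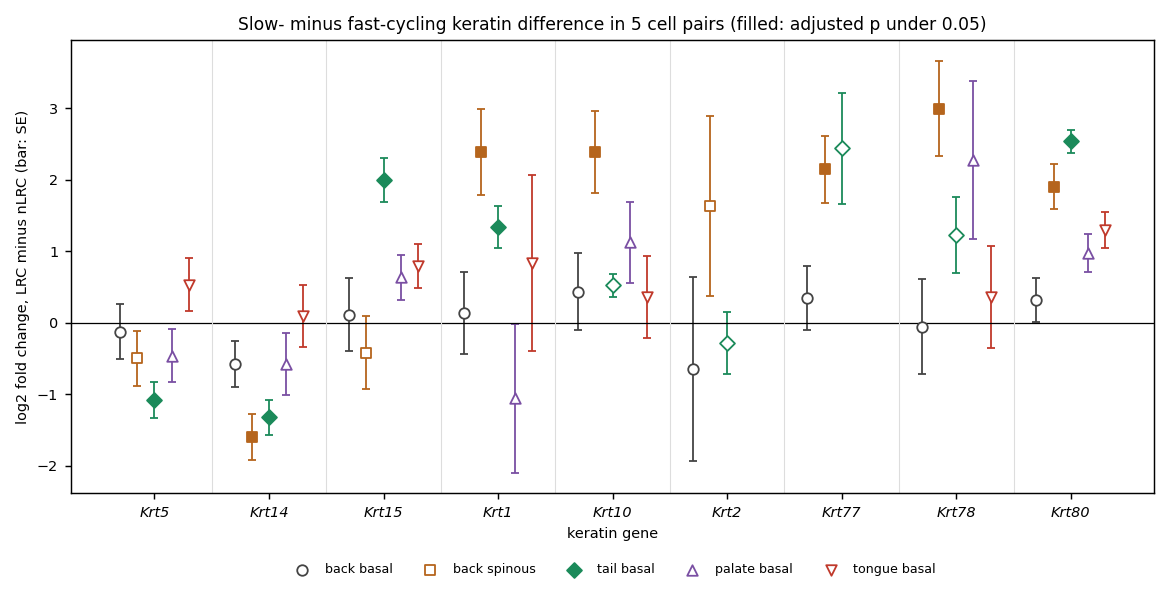
Log2 fold change of LRC over nLRC for each keratin in 5 cell pairs, with SE bars, from edgeR. Filled symbols passed an adjusted p of 0.05. Krt80 lies above 0 in all 5 pairs and is filled in back spinous (1.90) and tail basal (2.54) cells. Krt2 and Krt77 were not tested in palate and tongue.

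The tail bulge was the tail population with the most Krt15 and the least of Krt1, Krt10 and Krt2. Against tail basal LRC 8 of 9 keratins passed, 1 higher and 7 lower, where 19.1% of genes passed (10.1% higher and 9% lower). Against tail basal nLRC 8 passed, 2 higher and 6 lower, where 23.3% did (13.2% higher and 10.1% lower). Krt15 was at 4789, 3406 and 6642 TPM in the tail bulge, above every basal library, and rose by 1.36 over LRC (SE 0.30, adjusted p = 0.0108) and by 3.35 over nLRC (SE 0.32, adjusted p = 5.90e-05). Krt14 was at 2726, 2390 and 2619 TPM, with log2 fold changes of -1.31 against LRC (SE 0.25) and -2.63 against nLRC (SE 0.26). Krt5 did not pass against LRC (0.03, SE 0.25) and was lower than in nLRC (-1.05, SE 0.25).

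Krt1 was at 54.0, 20.4 and 46.7 TPM in the tail bulge, a log2 fold change of -5.73 against LRC (SE 0.36, adjusted p = 7.84e-06). Krt10 was at 58.3, 43.2 and 58.5 TPM, a log2 fold change of -5.30 (SE 0.19), and Krt2 at 20.8, 25.6 and 13.4 TPM, one of -4.59 (SE 0.50). Krt80 lay between the basal groups, at 42.8, 24.3 and 49.3 TPM, lower than in LRC (-1.26, SE 0.15, adjusted p = 0.000355) and higher than in nLRC (1.28, SE 0.16, adjusted p = 0.000286). Krt78 and Krt77 rested on few reads. Krt78 had 8 reads in the 3 bulge libraries, 104 in LRC and 35 in nLRC, and Krt77 had 2 in the bulge, 44 in LRC and 6 in nLRC. Krt77 missed the threshold against LRC without tail LRC library 1 or tail bulge library 2 or 3 (adjusted p of 0.0558, 0.0700 and 0.0577), and Krt78 against nLRC without any of 8 libraries, all but tail bulge library 1 (0.0540 to 0.142). Krt78 also missed it there by limma (0.256), by DESeq2 (0.0517) and with no filter on low counts (0.101), and Krt5 against nLRC had 0.0712 with only the groups compared.

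Markers of other cells moved with the bulge label in tail. Endothelial markers rose in 3 of 4 cases against LRC and 4 of 4 against nLRC, with summed levels of 6.06 to 41.2 TPM in the bulge and at most 0.20 TPM in LRC and 0.26 TPM in nLRC. Merkel cell markers, of which 1 was tested and rose, summed to 57.0 to 70.1 TPM in the bulge and to at most 1.12 TPM in LRC. Few genes carried that sum, as 2 of the 4 had 0 reads in each tail bulge library. Mitosis genes fell in 11 of 12 cases against LRC and 3 of 12 against nLRC. Whether these moved the keratin values was not tested.

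Krt77 and Krt2 exchanged places between back and tail skin. Krt77 had 1750 to 3069 TPM in the 6 back basal libraries, where Krt2 had 0 to 3.09 TPM. In the 6 tail basal libraries Krt2 had 281 to 968 TPM and Krt77 0 to 1.08 TPM, from 1 to 22 reads a library. Krt10 and Krt1 also stood in different proportion, with Krt10 at 3.30 to 5.60 times the Krt1 level in back basal libraries and at 0.861 to 2.61 times in tail basal libraries, where the length implied for Krt1 was 2469 bases in place of 2668. Krt15 was at 5905 to 12775 TPM in back basal and 316 to 2993 TPM in tail basal libraries. The sets of tables were made separately, so these levels are given side by side without a test.

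**Figure D4:**
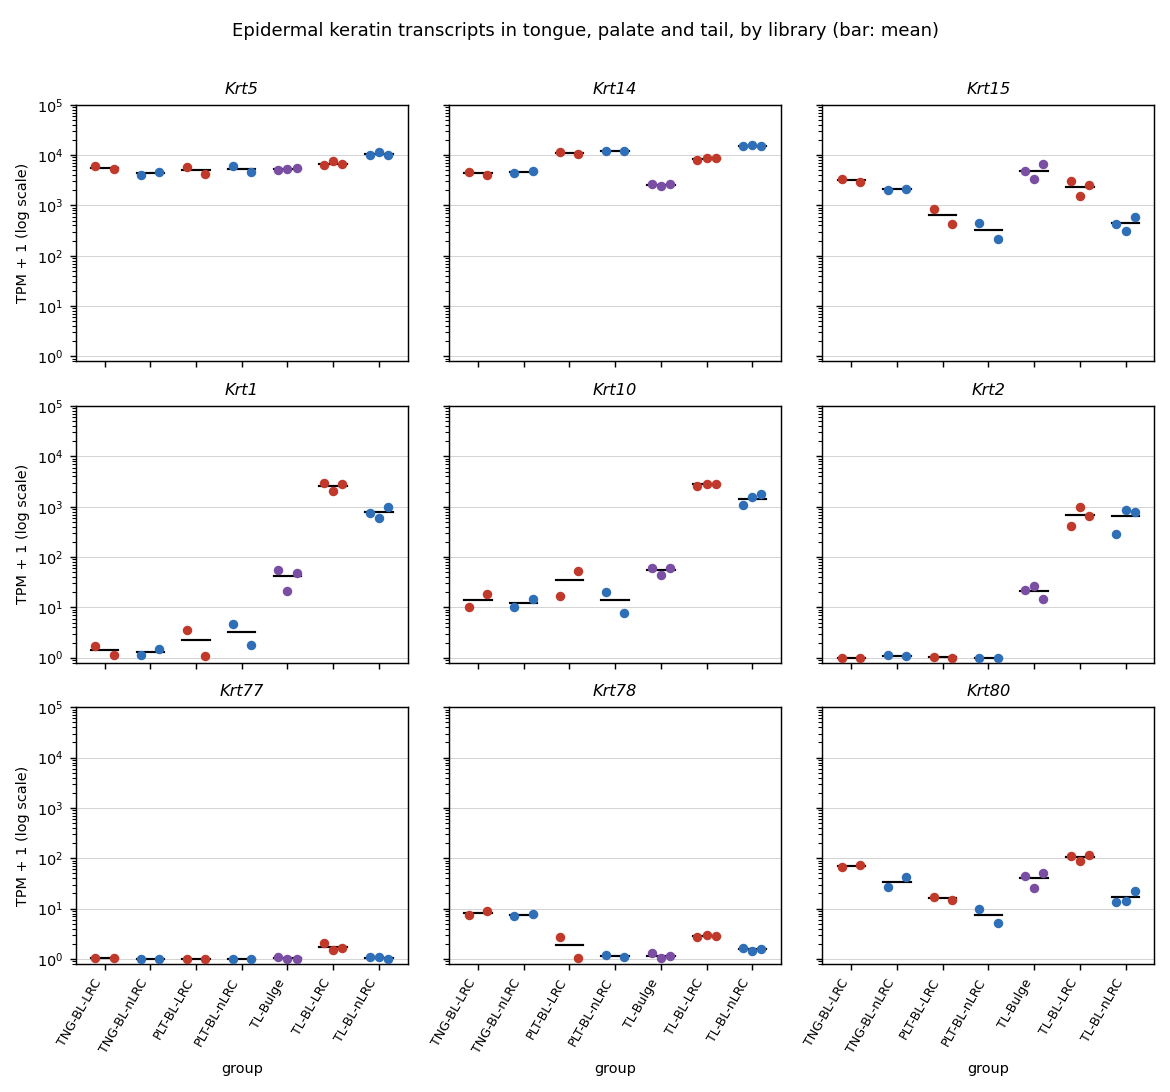
TPM + 1 on a log axis for each of the 9 keratins in tongue, palate and tail groups. Points are libraries and bars are means of 2 or 3. Krt1, Krt10 and Krt2 are high in tail basal cells (Krt2 at 281 to 968 TPM) and near 0 in tongue and palate, Krt77 is near 0 throughout, and Krt15 is highest in the tail bulge.

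Basal cells of tongue and palate had the basal keratins and almost none of the epidermal suprabasal pair. Tongue libraries had 4119 to 5959 TPM of Krt5 and 4086 to 4793 TPM of Krt14, and palate libraries had 4276 to 5969 TPM of Krt5 and 10760 to 12052 TPM of Krt14. Krt1 reached 0.73 TPM at most in tongue and 3.66 TPM in palate, and Krt10 reached 17.2 TPM in tongue and 50.7 TPM in palate. The 4 tongue libraries held 28 Krt1 reads and 3 Krt2 reads, and the 4 palate libraries held 128 and 5, against 129116 and 52424 in the 6 tail basal libraries. From reads scaled by library totals, tail basal cells had 3039 times the Krt1 of tongue (95% interval 2103 to 4574). The interval covers counting error only. All 5 palate Krt2 reads were in palate LRC library 1 and the other 3 palate libraries had 0, so no ratio is given. Krt77 had 2 reads in tongue and 7 in palate.

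Against tail basal cells 8 keratins passed in tongue, 2 higher and 6 lower, where 27.3% of 16614 genes passed (13.6% higher and 13.7% lower), and 5 passed in palate, 0 higher and 5 lower, where 26% did (13.9% higher and 12.2% lower). Krt10 fell in both tissues. It averaged 12.3 ± 3.88 TPM in tongue and 2107 ± 763 TPM in tail (SD, n = 4 and 6). Palate averaged 23.1 ± 19.2 TPM (n = 4), a log2 fold change from tail of -6.08 (SE 0.41, adjusted p = 2.65e-07). Krt14 was lower in tongue than in tail (-1.22, SE 0.22, adjusted p = 0.00108), while in palate it did not pass (0.51, SE 0.21, adjusted p = 0.0921). Krt15 rose by 1.45 in tongue (SE 0.23, adjusted p = 0.000410) and fell in palate (-0.79, SE 0.24, adjusted p = 0.0289). Krt78 rose by 2.72 in tongue (SE 0.47, adjusted p = 0.000742). Krt80 fell in palate (-1.80, SE 0.17), though palate libraries overlapped the tail nLRC libraries. Krt5 fell in tongue (-0.65, SE 0.19, adjusted p = 0.0199), but in LRC libraries alone its log2 fold change was 0.16 (SE 0.26, adjusted p = 0.688). Tail and oral tables carry different table codes, so tissue and code cannot be told apart here, and a tail library and an oral library differ also in days of doxycycline. Sebocyte markers fell in 6 of 11 cases in tongue and 7 of 11 in palate, and upper follicle markers in 4 of 6 in tongue and 5 of 6 in palate. Bulge markers fell in 6 of 10 in tongue and 3 of 10 in palate. Fibroblast markers summed to 26.4 to 153 TPM in tongue, 28.2 to 84.2 TPM in palate and 0.21 to 6.89 TPM in tail, and Merkel cell markers to 1.48 to 3.07 TPM in tongue, 1.96 to 49.75 TPM in palate and at most 1.12 TPM in tail. Few genes carried the fibroblast sum. Of its 6 genes 4 to 5 had 0 reads in tongue LRC and 2 to 4 in the other oral groups. The collagen gene Col1a1 was at most 0.09 TPM in tongue, 0.19 TPM in palate and 0.08 TPM in tail basal cells. The part of these markers in the keratin differences was not tested.

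Some of these calls depended on a library or on the cell class. Krt15 in palate had an adjusted p of 0.0511 to 0.142 without any of 7 libraries: tail LRC 1 or 3, tail nLRC 1 or 3, palate LRC 2, palate nLRC 1 or 2. Krt5 in tongue had 0.0928 without tongue LRC library 1, 0.0717 without tongue nLRC library 1 and 0.0991 without tongue nLRC library 2. Krt77 in tongue had 0.0509 without tail nLRC library 1 and 0.0859 to 0.117 without any 1 tongue library. In LRC libraries alone 4 keratins passed in tongue against tail, and Krt5, Krt14, Krt15 and Krt77 did not.

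Tongue and palate differed from each other in 4 of the 7 keratins tested, where 9.62% of 14923 genes passed (4.91% higher and 4.71% lower). Krt15 was at 3388, 2978, 2021 and 2134 TPM in tongue and at 848, 430, 450 and 211 TPM in palate, and rose by 2.23 (SE 0.23, adjusted p = 0.000402). Krt14 fell in tongue (-1.75, SE 0.31, adjusted p = 0.00816). The type I chains thus stood at a Krt15 to Krt14 ratio of 0.445 to 0.736 in tongue and 0.0178 to 0.0730 in palate. Krt78 was at 6.12 to 7.77 TPM in tongue and 0.04 to 1.72 TPM in palate (4.05, SE 0.65, adjusted p = 0.00473). Of 51 palate Krt78 reads 43 were in palate LRC library 1, and its log2 fold change was 6.06 without that library and 2.48 by limma on log2(TPM + 1). Krt80 was at 25.8 to 72.3 TPM in tongue and 4.08 to 16.1 TPM in palate (2.14, SE 0.19, adjusted p = 0.000195). Krt5 overlapped (adjusted p = 0.385). Of 13 spinous differentiation genes 4 rose in tongue and 0 fell, and Tgm1, which crosslinks the cornified envelope, rose by 2.35 (SE 0.24). Krt14 and Krt78 were not called in LRC libraries alone. The counts with each library left out were 4 to 5, and 4 without palate nLRC library 2.

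Within tongue and within palate 0 of 7 keratins passed edgeR's test between LRC and nLRC, where 0.0067% of 14923 genes passed in tongue (0.0067% higher and 0% lower) and 0% in palate. The unadjusted p was below 0.05 for 2 keratins in tongue and 1 in palate, and for 4.66% of all genes in tongue and 7.25% in palate. Krt80 was at 67.7 and 72.3 TPM in tongue LRC and at 25.8 and 40.9 TPM in tongue nLRC (1.29, SE 0.25, adjusted p = 0.207). In palate it was at 16.1 and 13.95 TPM in LRC and at 8.81 and 4.08 TPM in nLRC (0.97, SE 0.27, adjusted p = 0.640). Neither pair of groups overlapped, though the share of all genes without overlap was not counted. DESeq2 called 1 keratin, Krt80, in tongue and 0 in palate, and 2 keratins passed in palate without palate nLRC library 1. The count over all genes moved as well, from 0 to 1601 in palate with each library left out and from 0 to 236 in tongue over all alternatives.

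Krt80 was thus higher in LRC than in nLRC in every cell pair examined. Its level was higher in the LRC library of the same number in 3 of 3 pairs of back basal, 3 of 3 of back spinous and 3 of 3 of tail basal cells, and in 2 of 2 pairs of palate and 2 of 2 of tongue. The test passed in 2 of these 5 comparisons. How often all genes run the same way in every pair was not counted. Krt14 was lower in LRC in 3 of 3 pairs of each of the 3 skin comparisons and in 2 of 2 pairs of palate, but in 1 of 2 pairs of tongue. Krt15 was higher in LRC in 3 of 3 pairs of tail, 2 of 2 of palate and 2 of 2 of tongue, in 2 of 3 of back basal and in 0 of 3 of back spinous cells.

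The order of levels separated the genes. In back skin Krt1 and Krt10 were highest in spinous LRC and the granular layer, which overlapped, and Krt77 and Krt80 in the granular layer and spinous LRC, which overlapped as well. Krt78 was at 143 ± 6.58 TPM in the granular layer and 91.6 ± 6.30 TPM in spinous LRC (SD, n = 3 each), without overlap but not past the test (adjusted p = 0.912, edgeR). Krt5 was highest in the 2 basal groups, which overlapped, and next in the bulge, whose range overlapped that of both spinous groups in turn. Krt15 had no gap between any neighbours in back skin. Among the other groups Krt14 ran from tail nLRC (15393 ± 389 TPM, n = 3) through palate to tail LRC (8387 ± 407 TPM), tongue and the tail bulge (2578 ± 172 TPM), with overlap only between the 2 tongue groups. Krt80 ran from tail LRC and tongue LRC at the top to palate nLRC at 6.45 ± 3.34 TPM (n = 2).

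With the 9 keratins themselves left out of the candidates, over the 18 back skin libraries the 3 genes whose log2(TPM + 1) was most like Krt5 were Fpgs, Itgb4 and Lamb3 (Pearson r of 0.971, 0.962 and 0.961), the last a laminin chain of the basement membrane. Krt10 was most like Acsl1 (0.992), Krt77 most like Abca12 (0.992), the lipid transporter of lamellar granules, and Krt80 most like Clip4 (0.993). Krt1 was most like Tjp3 (0.990), though Krt1 and Krt10 correlated with each other at 0.992. Over the 17 other libraries Krt15 was most like Lfng (0.937), Krt14 most like Phgdh (0.925) and Krt80 most like Tubb4b (0.947). These values describe libraries that fall into groups and share depth and layer, and carry no test.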

How the data were processed

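RNA of sorted cells was made into stranded total RNA libraries (SMARTer Pico v2), per the labels' protocols. The deposited tables give, per gene, whole read counts and TPM made by the authors. The genome build was mm10, per the submitters' processing notes; the aligner, counter, annotation and treatment of reads shared by similar genes were not given in the sources used here. The table's own length for Krt1 was shorter than the annotated exons.

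Read counts were tested with edgeR 4.0.16 (R 4.3.3; TMM scaling, filterByExpr with a minimum count of 10 and a total of 15, quasi-likelihood test, Benjamini-Hochberg, threshold 0.05). All 18 back libraries, all 9 tail libraries, all 8 oral libraries, 14 basal tail and oral libraries and 12 basal back and tail libraries each made 1 fit, the last on shared gene names. All 9 keratins passed the low-count filter except Krt2 and Krt77 in the oral fit. The SE is the absolute log2 fold change divided by the square root of F. The fits were tested on simulated counts first. Alternatives were RLE scaling, DESeq2 1.42.0, no filter, limma 3.58.1 on log2(TPM + 1), a replicate block, each library left out, fewer groups and 1 cell class alone.

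Same-numbered libraries deviated together in the compared pairs of back basal, spinous and granular groups (correlations of 0.298 to 0.702) and of tail groups (0.217 to 0.690). Those numbers may therefore pair samples, as a hint from the data. The main tests used group means only and did not use the pairing. It entered only in the replicate block and in the counts of pairs. Back bulge against basal ran from -0.064 to 0.477 and was not taken as paired.

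The 9 members, the gene lists and the tests were chosen with earlier results of these data known. All 9 members were looked up in every comparison, and not every value is printed. Genes of lists were named by smallest p, and genes most like a member by correlation, at a mean of at least 10 TPM. Antisense or overlapping reads were not examined.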

Additional observations from a re-analysis of the deposited data

Results flagged for a closer look

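The difference between the LRC effects of tail and back basal cells in Krt80 passed the test of the difference itself, at 2.219 on the log2 scale (SE 0.30, adjusted p = 0.00121, edgeR). LRC over nLRC was 2.54 in tail (SE 0.16) and 0.32 in back skin (SE 0.30), and Krt80 was higher in the LRC library in 3 of 3 pairs of each tissue. Krt80 reads and TPM stood in different relation in the 2 sets of tables. Only a factor that is constant within a set cancels in this difference.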

How the results depend on the processing

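Over 3205 keratin results under alternatives, 2992 kept their direction and side of the threshold, 76 passed only under the alternative, 101 no longer passed and 36 changed direction. Median-of-ratios scaling changed no count by more than 1.5 times. Keratins called are given here, and the cause of a change was not tested. Spinous against basal LRC gave 7, but 3 by limma, and 3 to 7 with each library left out. Spinous against basal nLRC gave 0, but 2 by DESeq2, 1 by limma, 2 with the replicate block and 2 with only the groups compared (left out: 0 to 2). Granular against spinous LRC gave 0, but 1 by DESeq2, by limma and with the replicate block, and 2 with only the groups compared (left out: 0 to 1). Back bulge against basal gave 5, but 2 with only the groups compared and 3 against basal nLRC alone (left out: 3 to 6). The difference of LRC effects between spinous and basal layers gave 0, but 1 by DESeq2 and 1 with no low-count filter (left out: 0 to 4). Tail LRC against nLRC gave 5, and 6 by DESeq2 and by limma, where Krt10 was added (left out: 2 to 5). Palate LRC against nLRC gave 0, but 3 with no filter (left out: 0 to 2). Tongue LRC against nLRC gave 0, but 1 by DESeq2 and 1 with no filter. In LRC libraries alone tongue against palate gave 2, in place of 4, and tongue against tail 4, in place of 8. The tail minus back difference of LRC effects gave 1, but 4 by DESeq2, 4 with no filter, 3 by limma and 4 with the replicate block (left out: 1 to 3). DESeq2 gave no adjusted p for 2 of 9 keratins in layer comparisons such as granular against basal, and these were not counted.

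Log2 fold changes that turned round with a method were small. By limma these were Krt15 (-0.12) and Krt78 (-0.31) for back bulge, Krt2 for tail LRC (0.17), Krt5 for tail bulge against LRC (-0.36) and Krt14 for tongue LRC (-0.084). In LRC libraries alone Krt5 was 0.094 for tongue against palate, 0.050 for palate against tail and 0.16 for tongue against tail, and Krt80 was -0.26 for tongue against tail. With each library left out, ranges that crossed 0 were -2.55 to 0.31 for Krt2 in spinous against basal nLRC, -0.24 to 0.050 for Krt14 and -0.39 to 0.028 for Krt1 in granular against spinous LRC, and -1.49 to 1.15 for Krt78 in back bulge. In LRC against nLRC they were -0.22 to 0.58 for Krt15, -0.023 to 0.27 for Krt1 and -0.36 to 0.20 for Krt78 in back basal cells, -0.97 to 0.083 for Krt15 in back spinous cells and -0.57 to 0.023 for Krt2 in tail. In palate they were -0.98 to 0.021 for Krt14, -0.17 to 1.79 for Krt10 and -1.76 to 3.15 for Krt78. In tongue they were -0.056 to 0.25 for Krt14, -0.34 to 0.86 for Krt10 and -0.048 to 0.70 for Krt78. The last were -0.19 to 0.20 for Krt5 in tail bulge against LRC, -2.45 to 0.036 for Krt1 in tongue against palate, and -0.12 to 0.29 for Krt10 and -0.24 to 0.80 for Krt2 in the tail minus back difference.

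Counts over all genes moved more. The lowest and highest over all alternatives were 361 and 2099 for spinous against basal LRC (1002), 205 and 1462 for nLRC (691), 24 and 497 for granular against spinous LRC (162), 1151 and 4043 against nLRC (2350), 1722 and 4838 for granular against basal (3315) and 1928 and 5643 for back bulge (4353). For LRC against nLRC they were 0 and 219 in back basal (39), 1065 and 4476 in back spinous (2571), 342 and 2128 in tail (690), 0 and 1601 in palate (0) and 0 and 236 in tongue cells (1). They were 0 and 866 for the spinous minus basal (65) and 303 and 1780 for the tail minus back difference (452), 491 and 3406 for tongue against palate (1436), 2029 and 5038 for palate (4325) and 2419 and 5234 for tongue (4528) against tail.

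The replicate block changed no call of a keratin other than those given with their comparisons and Krt15 in palate against tail (adjusted p = 0.0592, edgeR), where numbers did not pair libraries. Same-numbered tongue libraries deviated apart (correlation -0.104), and with the pairs exchanged, an alternative chosen after seeing the data, 0 keratins passed. Groups of 2 and 3 libraries and keratins with few reads (Krt2 in back skin, Krt77 and Krt78 in tail) limit what can be called.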
